A study of Homo sapiens with 8 samples.

Results

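Macrophage growth factors and chemokines, secreted signals to myeloid cells and lymphocytes, were followed in 2 human prostate cancer cell lines with and without overexpressed TRIB1. The genes are the growth factor genes CSF1, IL34, CSF2 and CSF3 and the chemokine genes CCL2, CCL5, CCL20, CXCL10, CXCL16 and CX3CL1. They were taken by name, as 10 of the 57905 genes in the deposited table. Every name matched exactly 1 gene. RNA sequencing had been done on 8 libraries in 4 groups of 2, which were DU145 with TRIB1, DU145 control, PC3 with TRIB1 and PC3 control. TRIB1 cells had received a lentivirus that overexpresses TRIB1, a pseudokinase that brings C/EBP transcription factors to a ubiquitin ligase, and control cells a lentivirus of the blank vector. DU145 derives from a brain metastasis and PC3 from a bone metastasis of prostate cancer. The labels state neither a promoter for the transgene nor whether cells were cloned, and give no source of the replicates. The p-values thus rest on the spread between these libraries alone, and that spread may be technical.

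CSF1 and IL34 both bind the receptor CSF1R, which monocytes and macrophages need to survive and divide. CSF2 (GM-CSF) and CSF3 (G-CSF) act on granulocytes and their precursors, and CSF2 also on macrophages and dendritic cells. Chemokines direct cell migration: CCL2 draws monocytes through CCR2, CCL5 draws monocytes and T cells, and CCL20 draws cells with CCR6. CXCL10 acts on activated T cells through CXCR3, CXCL16 on lymphocytes through CXCR6, and CX3CL1 on monocytes through CX3CR1. CXCL16 and CX3CL1 are made as membrane proteins and are shed by the proteases ADAM10 and ADAM17. Tumour cells are a known source of several of these signals, and CCL2 and CSF1 are among those studied for macrophage recruitment to prostate tumours.

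Levels are in TPM, a relative abundance of transcripts, which correct for gene length and add up to the same total in every library. TPM keep no read totals, so the depth is unknown and the precision of low values cannot be given. Between 30398 and 31694 genes were above 0 per library. In DU145, TRIB1 stood at 69.4 and 62.3 TPM with the TRIB1 virus and at 10.1 and 7.94 TPM in controls. In PC3 it stood at 241 and 245 TPM with the virus and at 45.1 and 50.8 TPM in controls. Within each line every library thus matched its TRIB1 or control label, which does not check the line itself. The second DU145 TRIB1 library stood apart on the second principal component of the 2000 most variable genes, at -61.7, where the remaining DU145 libraries lay between 21.5 and 24.9. Epithelial marker genes reached summed levels of 1279 to 2815 TPM. The prostate luminal gene KLK3 was listed at 0 in every library but the first DU145 control (0.186 TPM). PTPRC, the marker of all leukocytes, was at or below 0.467 TPM, so the ligands below were read in cultures almost without its transcript. The summed level of 7 macrophage markers nevertheless differed between groups, at 10.3 to 13.7 TPM in DU145 TRIB1 and 31.6 to 36.1 TPM in DU145 control libraries, and at 35.8 to 38.3 TPM in PC3 TRIB1 and 22.4 to 25.4 TPM in PC3 control libraries. CD68, a lysosomal membrane protein gene, made up most of these sums (7.20 and 7.04 TPM in DU145 TRIB1, 26.1 and 31.7 TPM in DU145 control). CD163 stayed at or below 0.378 TPM and AIF1 at or below 0.453 TPM. LYZ had 1.04 to 2.07 TPM over the libraries, and ITGAM, CSF1R and CD14 reached 2.46, 1.98 and 1.18 TPM. Markers of T and B cells summed to at most 0.713 TPM and those of endothelial cells to at most 0.287 TPM, without PECAM1, which had no values. The 4 fibroblast markers summed to between 38.6 and 69.5 TPM. COL1A1 made up most of these fibroblast sums (36.0 to 69.0 TPM), while COL1A2 stayed at or below 0.268 TPM and DCN at or below 1.15 TPM. PDGFRB had 2.33 to 2.97 TPM in DU145 libraries, and 0.0506 to 1.30 TPM in PC3 libraries. The part of these markers in the results was not tested.

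A gene was tested where its mean reached 1 TPM in at least 1 group, which 7 of the 10 genes and 25982 genes in all did. The test was limma on log2(TPM + 1) with adjusted p-values (Benjamini-Hochberg) over all genes tested, and rose, fell and passed are used at an adjusted p below 0.05. A log2 change on this scale understates the change of a low gene. IL34, CXCL10 and CX3CL1 did not reach the minimum and have values only. CSF3 reached it only in PC3, where it is high, so its difference between the lines had to be large.

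The promoter sequences of 3 of the 10 genes, CCL20, CXCL10 and CSF2, were present in the RefSeq table used (GRCh38.p14). They are shown because CCL20 carries the result of opposite sign described below, while CSF2 did not pass the test between TRIB1 and control and CXCL10 was too low to be tested. Each run is the 250 bases before the transcription start, 5′ to 3′ on the strand of the gene, and capitals mark matches to the motifs searched. CCL20 (chr2:227813592-227813841, + strand), CXCL10 (chr4:76023498-76023747, - strand) and CSF2 (chr5:132073539-132073788, + strand) read:
CCL20: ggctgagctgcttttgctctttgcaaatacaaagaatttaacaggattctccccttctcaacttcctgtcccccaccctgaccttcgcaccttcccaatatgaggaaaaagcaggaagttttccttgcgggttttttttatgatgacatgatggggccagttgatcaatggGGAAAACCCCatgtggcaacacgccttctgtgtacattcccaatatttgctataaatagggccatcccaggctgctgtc
CXCL10: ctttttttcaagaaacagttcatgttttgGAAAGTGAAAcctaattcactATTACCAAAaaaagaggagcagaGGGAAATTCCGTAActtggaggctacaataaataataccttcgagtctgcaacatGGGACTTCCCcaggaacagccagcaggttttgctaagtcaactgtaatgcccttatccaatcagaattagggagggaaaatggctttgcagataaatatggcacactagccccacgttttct
CSF2: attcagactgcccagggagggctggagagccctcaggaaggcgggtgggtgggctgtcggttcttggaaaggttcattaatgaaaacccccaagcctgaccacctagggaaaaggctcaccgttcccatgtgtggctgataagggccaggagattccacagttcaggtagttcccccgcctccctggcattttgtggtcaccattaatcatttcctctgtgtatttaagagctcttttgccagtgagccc

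4 motifs were searched on both strands with overlaps allowed: the NF-kB consensus, the interferon-stimulated response element (GAAA and GAAA spaced by 2 bases), the AP-1 site TGANTCA and the C/EBP motif TTNNGNAAT. The CCL20 window held 1 match to the NF-kB consensus, GGAAAACCCC, at 79 to 70 bases before the start. CXCL10 held 2, GGGAAATTCC at 177 to 168 and GGGACTTCCC at 122 to 113 bases before the start, with the interferon element GAAAGTGAAA at 221 to 212 bases. It also held 2 C/EBP matches, of which ATTCCGTAA overlaps the farther NF-kB match. No motif matched in the CSF2 window. Of 27305 promoters of the same length, 5.05% held the NF-kB consensus, 3.07% the interferon element, 6.6% the AP-1 site and 10.01% the C/EBP motif. A match describes the letters in this window and not a bound site.

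The 10 genes together took 74.1 and 69.1 TPM in DU145 TRIB1 libraries, against 173 and 168 TPM in DU145 control libraries. In PC3 the sum was 152 and 144 TPM with TRIB1 and 146 and 146 TPM in controls. The sums of the PC3 groups overlapped, but their make-up did not. CCL20 took 24.6% and 27.6% of the sum in PC3 TRIB1, against 5.52% and 4.25% in PC3 control, and CSF3 took 15.1% and 14.5%, against 49.4% and 48.0%. In DU145, CSF1 took 32.6% and 28.8% of the sum with TRIB1 and 33.6% and 37.3% in controls, and CCL2 took 19.3% and 19.2%, against 36.1% and 33.5%. CXCL16 took 41.9% and 43.7% of the DU145 TRIB1 sum, against 19.8% and 19.6% in DU145 control, with little change of its own level.

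**Figure D1:**
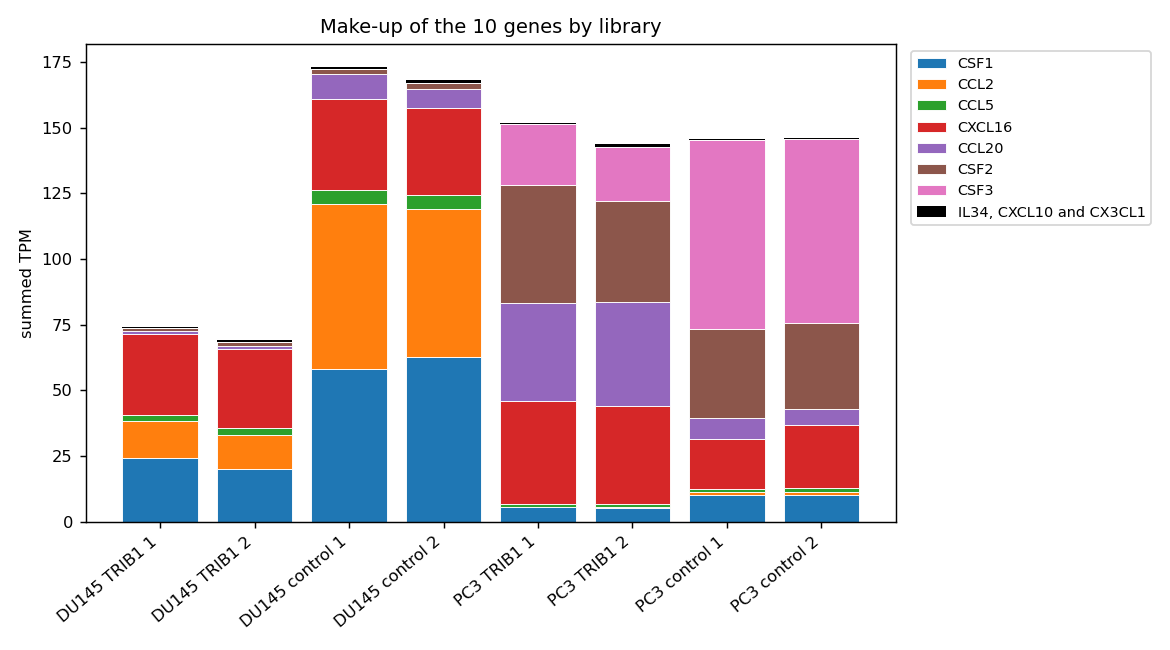
Summed TPM of the 10 genes (vertical axis) in each of the 8 libraries, stacked by gene. The DU145 TRIB1 bars stand at 74.1 and 69.1 TPM against 173 and 168 TPM in DU145 control, whereas the PC3 bars all stand between 144 and 152 TPM with more CCL20 and less CSF3 in the TRIB1 libraries.

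With TRIB1 in DU145, 3 of the 10 genes fell, CCL20, CCL2 and CSF1, and 0 rose. Of all genes tested, 2.01% fell and 0.712% rose in this comparison (limma; 0 of the 7 tested members were higher and 5 lower at an unadjusted p below 0.05). This excess of falls among all genes was not stable, as more genes rose than fell when either DU145 TRIB1 library was left out. Scaling by median of ratios left 265 genes higher and 360 lower in DU145, against 185 and 522 as deposited. In cultures measured in bulk, fewer cells that make a transcript and less transcript per cell cannot be told apart. The median log2 change was -1.02 over the 7 members tested and -0.04 over all genes tested. In PC3, CCL20 and CXCL16 rose and CSF3, CSF1 and CCL2 fell, which is 2 and 3 of the 10 genes, where 7.67% of all genes tested rose and 9.33% fell. There the median was -0.02 over the 7 members and -0.01 over all genes. The count of 3 in DU145 was 2 without the first DU145 control, and the count of 5 in PC3 was 3 without the first PC3 TRIB1 library.

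**Figure D2:**
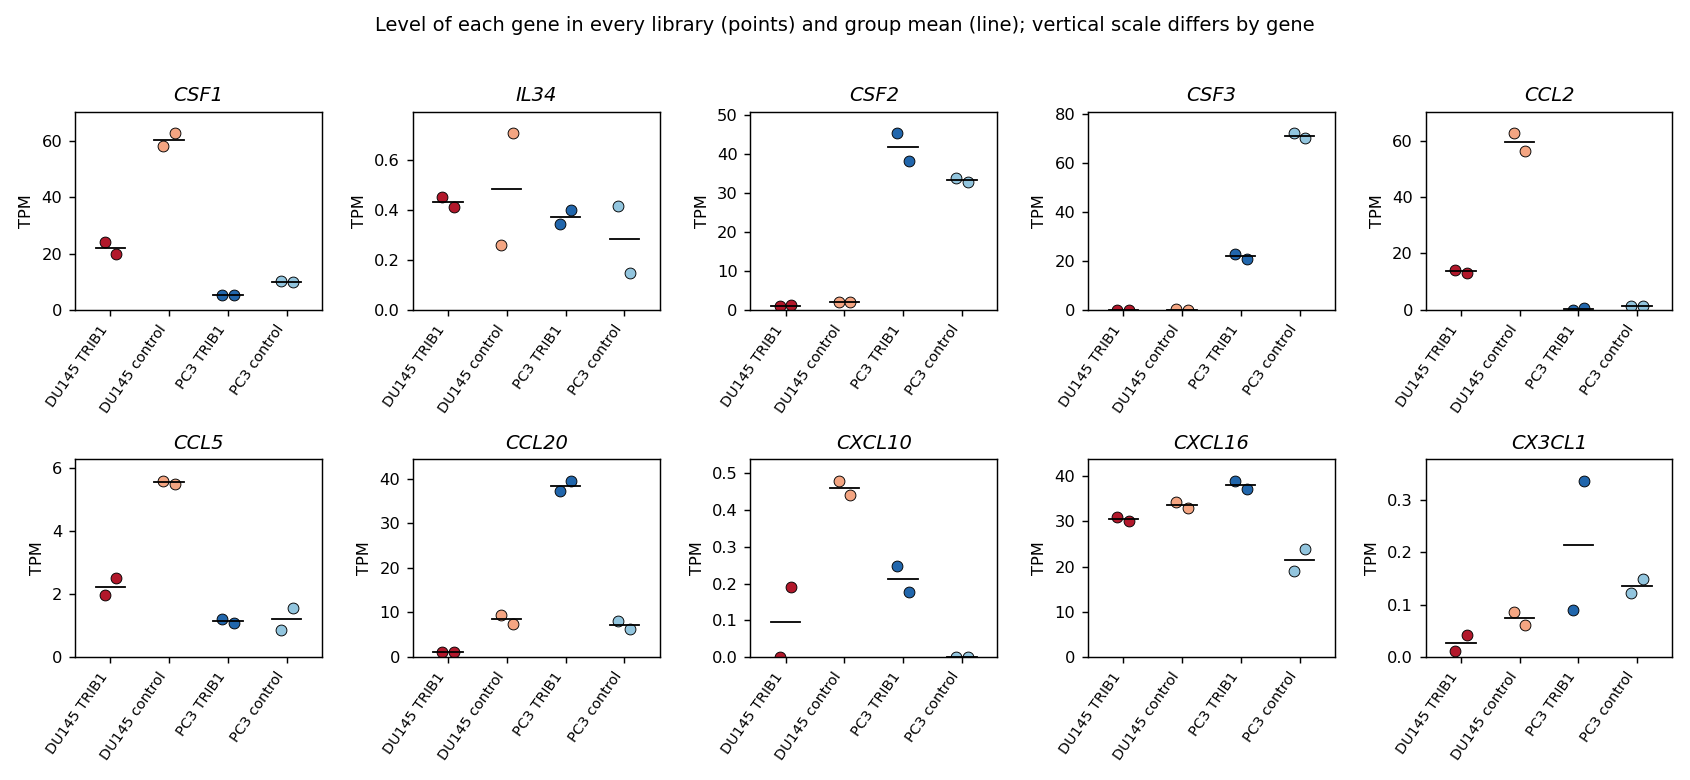
TPM of each of the 10 genes (vertical axis, own scale per gene, from 0) in the 2 libraries of each group (points) with the group mean (line). CCL20 is lowest in DU145 TRIB1, at 1.21 and 1.19 TPM, and highest in PC3 TRIB1, at 37.3 and 39.6 TPM, while CSF3 and CSF2 stand high in PC3 and CSF1 and CCL2 in DU145.

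Of the growth factors, CSF1 (ENSG00000184371, chr1:109910242-109930992 on GRCh38, + strand) had 24.2 and 19.9 TPM in DU145 TRIB1 libraries, against 58.2 and 62.7 TPM in DU145 control libraries. In PC3 it had 5.36 and 5.14 TPM with TRIB1, against 10.1 and 9.92 TPM in controls. The groups did not overlap in either line, and the order of levels ran from DU145 control through DU145 TRIB1 and PC3 control to PC3 TRIB1, with no overlap between neighbours. CSF1 fell in DU145 (log2 change -1.42, SE 0.11, limma adjusted p = 0.00605; means 22.0 ± 3.03 and 60.4 ± 3.15 TPM, SD, n = 2 each) and in PC3 (-0.82, SE 0.11, limma adjusted p = 0.00762). Both calls stood with any 1 library left out, but the DU145 call was lost with the DU145 libraries fitted alone (limma adjusted p = 0.0649). The difference between the falls, -0.60 (DU145 minus PC3, 95% interval -0.99 to -0.22), did not pass (limma adjusted p = 0.0693), though it did without the first DU145 TRIB1 library (0.0372). IL34, the other ligand of the same receptor, had 0.449 and 0.410 TPM in DU145 TRIB1, against 0.258 and 0.705 TPM in DU145 control, and 0.342 and 0.400 TPM in PC3 TRIB1, against 0.416 and 0.148 TPM in PC3 control. TRIB1 and control libraries overlapped in both lines, at levels under 1 TPM.

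CSF3 (ENSG00000108342, chr17:40015361-40017813, + strand) had 22.9 and 20.8 TPM in PC3 TRIB1 libraries, against 72.0 and 70.0 TPM in PC3 control libraries. In DU145 it was near 0 in both groups, at 0.0649 and 0.142 TPM with TRIB1 and 0.181 and 0.0460 TPM in controls. The PC3 groups lay far apart, and the DU145 groups overlapped. CSF3 fell in PC3 (log2 change -1.66, SE 0.12, limma adjusted p = 0.00167; means 21.9 ± 1.44 and 71.0 ± 1.39 TPM, SD, n = 2 each) and stayed called with any 1 library left out. In DU145 its log2 change was -0.01 (limma adjusted p = 1), with all 4 libraries at or below 0.181 TPM. CSF2 (chr5:132073790-132076170, + strand) is another growth factor gene that stood high in PC3. It had 45.2 and 38.3 TPM in PC3 TRIB1, against 33.9 and 32.7 TPM in PC3 control, and 0.899 and 1.34 TPM in DU145 TRIB1, against 1.92 and 2.13 TPM in DU145 control. CSF2 did not overlap between TRIB1 and control in either line, higher with TRIB1 in PC3 and lower in DU145, but passed in neither (log2 change 0.31, 95% interval -0.04 to 0.67, limma adjusted p = 0.212 in PC3; -0.52, interval -0.88 to -0.17, limma adjusted p = 0.142 in DU145). With a pseudocount of 0.1 TPM the DU145 change was -0.83 (limma adjusted p = 0.113).

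Of the CC chemokines, CCL20 (ENSG00000115009, chr2:227805739-227817564, + strand), a ligand for lymphocytes and dendritic cells, moved in opposite directions. It had 1.21 and 1.19 TPM in DU145 TRIB1 libraries, against 9.52 and 7.35 TPM in DU145 control libraries. In PC3 it had 37.3 and 39.6 TPM with TRIB1, against 8.05 and 6.201 TPM in controls. The control libraries of the lines overlapped, and TRIB1 libraries stood below them in DU145 and above them in PC3. CCL20 fell in DU145 (log2 change -2.09, SE 0.17, limma adjusted p = 0.00621; means 1.198 ± 0.0171 and 8.43 ± 1.53 TPM, SD, n = 2 each), a call that stood with any 1 library left out and was lost with the DU145 libraries fitted alone (limma adjusted p = 0.0712). It rose in PC3 (log2 change 2.29, SE 0.17, limma adjusted p = 0.00154; means 38.5 ± 1.63 and 7.13 ± 1.31 TPM, SD, n = 2 each). The difference of these changes, -4.38 (SE 0.23, 95% interval -4.95 to -3.81), passed in the all-library test (limma adjusted p = 0.00192) and with any 1 library left out. Its promoter, shown above, holds an NF-kB match. That window precedes the RefSeq start and lies inside the GENCODE 29 interval, which begins farther upstream, so the sources place the start differently. CCL20 had no overlapping gene in GENCODE 29.

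CCL2 (ENSG00000108691, chr17:34255218-34257203, + strand), the monocyte chemoattractant, had 14.3 and 13.2 TPM in DU145 TRIB1 libraries, against 62.5 and 56.3 TPM in DU145 control libraries. In PC3 it had 0.122 and 0.577 TPM with TRIB1, against 1.32 and 1.33 TPM in controls. All CCL2 levels in PC3 lay below those in DU145, and TRIB1 and control libraries did not overlap in either line. CCL2 fell in DU145 (log2 change -2.03, SE 0.18, limma adjusted p = 0.00827; means 13.8 ± 0.720 and 59.4 ± 4.41 TPM, SD, n = 2 each), a call lost without the first DU145 control (limma adjusted p = 0.0537) and with a pseudocount of 0.1 TPM (limma adjusted p = 0.101). Its fall in PC3 (-0.81, limma adjusted p = 0.0335) was at levels near 1 TPM. That call ended with any 1 library left out but the second PC3 TRIB1 library, at adjusted p-values of up to 0.116, and the change was -1.88 with a pseudocount of 0.1 TPM (limma adjusted p = 0.0539).

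CCL5 (chr17:35871491-35880793, - strand; listed as ENSG00000161570 in the table) had 1.95 and 2.49 TPM in DU145 TRIB1 libraries, against 5.59 and 5.48 TPM in DU145 control libraries. In PC3 it had 1.21 and 1.07 TPM with TRIB1, against 0.852 and 1.54 TPM in controls. The groups lay apart in DU145 and overlapped in PC3. CCL5 did not pass in DU145 (log2 change -1.02, 95% interval -1.54 to -0.51, limma adjusted p = 0.0714) nor in PC3 (-0.02, interval -0.53 to 0.49, limma adjusted p = 1). An annotated antisense RNA spans the whole of CCL5, and without a strand setting the 2 cannot be told apart.

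CXCL16 (ENSG00000161921, chr17:4733526-4739922, - strand), the membrane-bound ligand of CXCR6, had 39.1 and 37.2 TPM in PC3 TRIB1 libraries, against 19.1 and 23.9 TPM in PC3 control libraries. In DU145 it had 31.0 and 30.2 TPM with TRIB1, against 34.4 and 32.9 TPM in controls. The order of levels ran from PC3 TRIB1 through DU145 control and DU145 TRIB1 to PC3 control, with no overlap between neighbours. CXCL16 rose in PC3 (log2 change 0.81, SE 0.11, limma adjusted p = 0.00801; means 38.1 ± 1.29 and 21.5 ± 3.39 TPM, SD, n = 2 each), a call that was lost without the first PC3 TRIB1 library (limma adjusted p = 0.0562). In DU145 it did not pass (-0.13, 95% interval -0.40 to 0.14, limma adjusted p = 0.599). CXCL16 overlaps MED11 on the other strand by 85 bases, and MED11 had 14.8 and 14.2 TPM in PC3 TRIB1, against 14.6 and 11.4 TPM in PC3 control. CX3CL1, the other membrane-bound chemokine, had 0.0125 and 0.0422 TPM in DU145 TRIB1, against 0.0866 and 0.0614 TPM in DU145 control, and 0.0900 and 0.337 TPM in PC3 TRIB1, against 0.122 and 0.148 TPM in PC3 control. CXCL10, an interferon-induced chemokine gene that lies within the opposite-strand gene ART3, was listed at 0 and had 0.190 TPM in DU145 TRIB1, against 0.480 and 0.441 TPM in DU145 control, and had 0.247 and 0.178 TPM in PC3 TRIB1, against listings of 0 in both PC3 controls. Both genes stayed under 1 TPM in every library.

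**Figure D3:**
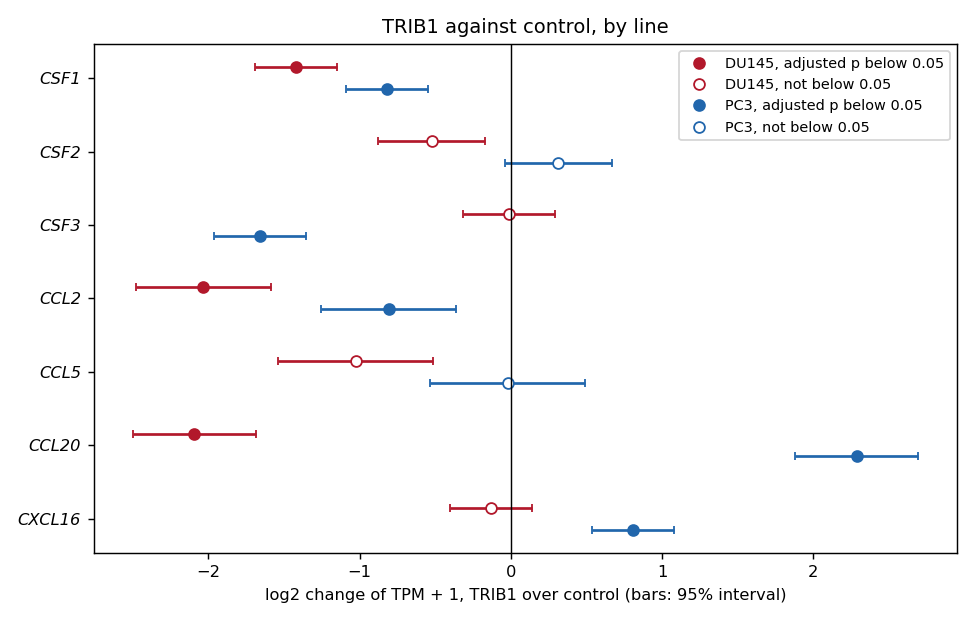
Log2 change of TPM + 1, TRIB1 over control (horizontal axis), for the 7 genes tested in DU145 (red) and PC3 (blue), with 95% intervals; filled points have an adjusted p below 0.05. CCL20 stands at -2.09 in DU145 and 2.29 in PC3, CSF1 and CCL2 are filled to the left of 0 in both lines, and CSF3 and CXCL16 are filled in PC3 and open in DU145.

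The TRIB1 change itself was compared between the lines, as that in DU145 minus that in PC3. The difference passed for 4 of the 10 genes, 3 lower (CCL20, CCL2 and CXCL16) and 1 higher (CSF3), where 5.36% of all genes tested were lower and 4.01% higher. CSF3 differed by 1.64 (SE 0.17, limma adjusted p = 0.00754), CXCL16 by -0.94 (SE 0.16, limma adjusted p = 0.0228) and CCL2 by -1.23 (SE 0.26, limma adjusted p = 0.0403). CSF3 was at or below 0.181 TPM in all DU145 libraries, so a fall could hardly be seen there. Its difference restates the fall in PC3 (-1.66) and cannot show a different response to TRIB1, and its place in the count of 4 is a description. CSF3 kept its call with any 1 library left out but not with a pseudocount of 0.1 TPM (limma adjusted p = 0.113). The CCL2 difference shrank to -0.22 with that pseudocount (limma adjusted p = 0.878), and it passed only without the first PC3 TRIB1 library among the 8 fits with 1 library left out (adjusted p-values 0.0260 to 0.139). CXCL16 lost its call when any DU145 or PC3 TRIB1 library or any DU145 control was left out (adjusted p-values of up to 0.0844). The count of 4 was 2 without either DU145 control, the second DU145 TRIB1 library or the second PC3 TRIB1 library, and with a pseudocount of 0.1 TPM. CCL5 (-1.003, 95% interval -1.73 to -0.28, limma adjusted p = 0.0962) and CSF2 (-0.84, interval -1.34 to -0.33, limma adjusted p = 0.0609) did not pass.

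Control libraries of the lines differed in many genes, some of these among them. CSF2 and CSF3 were higher in control PC3 than in control DU145, and CSF1, CCL2, CCL5 and CXCL16 were lower. That is 2 and 4 of the 10 genes, where 18.6% of all genes tested were higher and 28.4% lower. Differences between the lines were thus common among all genes, and these counts are descriptions. CSF3 averaged 71.0 ± 1.39 TPM in control PC3 and 0.114 ± 0.0958 TPM in control DU145 (log2 difference 6.02, SE 0.12, limma adjusted p = 3.40e-06), and CSF2 33.3 ± 0.827 and 2.03 ± 0.149 TPM (3.50, limma adjusted p = 2.10e-05; SD, n = 2 each). CSF3 reached the minimum for testing only through PC3, so its p-value and its place in the count are descriptions. CCL2 averaged 1.33 ± 0.00431 TPM in control PC3 and 59.4 ± 4.41 TPM in control DU145 (-4.70, limma adjusted p = 1.66e-05), and CSF1 10.01 ± 0.128 and 60.4 ± 3.15 TPM (-2.48, limma adjusted p = 2.70e-05). CCL5 and CXCL16 differed by -1.59 and -0.63 (limma adjusted p = 0.00154 and 0.00497). CCL20 was alike in range, at 8.05 and 6.201 TPM in control PC3 and 9.52 and 7.35 TPM in control DU145 (log2 difference -0.21, 95% interval -0.62 to 0.19, limma adjusted p = 0.337). The count of 6 stood with any 1 library left out. Median-of-ratios scaling moved the median of all genes in this comparison to -0.01, against -0.18 as deposited, with 6099 genes higher and 5804 lower, against 4840 and 7376.

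Transcripts of several chemokine receptors were at or near 0 in both lines. Of 20 genes for receptors, decoy receptors and processing enzymes, 10 reached the minimum to be tested. CCR6 was listed at 0 in every library, and CCR2, CX3CR1 and CXCR3 stayed at or below 0.152 TPM. CCR1 and CXCR6 reached 0.673 and 0.574 TPM, and CCR3 had 1.06 to 1.37 TPM in DU145 and 0.450 to 1.55 TPM in PC3. CSF1R had 0.925 and 0.761 TPM in DU145 TRIB1, against 0.918 and 0.733 TPM in DU145 control, and 1.95 and 1.65 TPM in PC3 TRIB1, against 1.98 and 1.502 TPM in PC3 control. In each line 1 of the 10 tested fell and 0 rose with TRIB1, where 2.01% of all genes tested fell in DU145 and 9.33% in PC3 (limma; 3 lower in DU145 and 1 lower in PC3 at an unadjusted p below 0.05, 0 higher in either). That gene was DPP4, a membrane protease that trims several chemokines. DPP4 had 0.937 and 0.787 TPM in DU145 TRIB1, against 2.61 and 2.19 TPM in DU145 control, and 4.40 and 4.85 TPM in PC3 TRIB1, against 8.80 and 7.64 TPM in PC3 control. Its log2 change was -0.87 in DU145 (limma adjusted p = 0.0494) and -0.71 in PC3 (limma adjusted p = 0.0289), calls that ended with any 1 library left out in DU145 (up to 0.178) and with any of 6 in PC3 (all but the DU145 TRIB1 libraries, up to 0.119). Between the controls, CSF2RA, a subunit of the CSF2 receptor, and the sheddase genes ADAM10 and ADAM17 were lower in PC3 (log2 differences -2.44, -1.25 and -1.42, limma adjusted p = 0.00119, 2.47e-04 and 9.14e-05), and DPP4 was higher (1.44, limma adjusted p = 6.31e-04).

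Most other chemokine genes that draw monocytes or lymphocytes were not at a testable level. Of 25 such genes 4 were tested, CCL25, CCL26, CCL28 and CXCL14. In DU145, 2 of the 4 fell, CXCL14 and CCL28, and 0 rose, where 2.01% of all genes tested fell (limma; 0 higher at an unadjusted p below 0.05). CCL28, a mucosal epithelial chemokine gene, had 3.69 and 3.70 TPM in DU145 TRIB1, against 7.90 and 7.27 TPM in DU145 control (log2 change -0.87, limma adjusted p = 0.0379). CXCL14 had 0.132 and 0.308 TPM in DU145 TRIB1, against 1.85 and 1.82 TPM in DU145 control (-1.22, limma adjusted p = 0.0482). CXCL14 reached the minimum for testing only through the DU145 controls, and was listed at 0 in all PC3 libraries, so it had to differ between groups and the count of 2 is a description. In PC3, CCL25 rose and 0 fell, where 7.67% of all genes tested rose (0 lower at an unadjusted p below 0.05), at 5.72 and 6.16 TPM with TRIB1 and 1.89 and 2.85 TPM in controls (1.06, limma adjusted p = 0.0220). CCL25 no longer passed when the first or the second PC3 TRIB1 library was left out (up to 0.0786), while 3 genes passed without the first PC3 control. The TRIB1 change of CCL28 was lower in DU145 than in PC3 (difference -1.34, limma adjusted p = 0.0161), where CCL28 had 8.95 and 9.73 TPM with TRIB1 and 7.28 and 5.75 TPM in controls. That call was lost when a DU145 control or a PC3 TRIB1 library was left out (up to 0.0622), and the count of 1 was 2 without either DU145 TRIB1 library or the first PC3 control and 3 without the second PC3 control. With 1 library left out, the count in DU145 was 1 or 2, since CCL28 lost its call without any DU145 or PC3 TRIB1 library and without either DU145 control (up to 0.165). Neither DU145 call held under median-of-ratios scaling, nor under scaling to the upper quartile.

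Transcription factor genes named in textbooks for these promoters were counted the same way. Of 19 such genes, all tested, 3 fell and 0 rose in DU145, where 2.01% of all genes tested fell and 0.712% rose (limma; 14 lower and 0 higher at an unadjusted p below 0.05), with a median log2 change of -0.45 against -0.04 over all genes. Among them were STAT2, which carries interferon signals, and NFKB1, a subunit of NF-kB. NFKB1 had 16.1 and 14.5 TPM in DU145 TRIB1, against 24.0 and 24.8 TPM in DU145 control, and 20.2 and 18.9 TPM in PC3 TRIB1, against 14.8 and 14.4 TPM in PC3 control. It fell in DU145 (-0.64, limma adjusted p = 0.0256) and rose in PC3 (0.40, limma adjusted p = 0.0290). The DU145 call was lost when a DU145 control, a PC3 TRIB1 library or the second DU145 TRIB1 library was left out (up to 0.0884), and the PC3 call without any PC3 library or either DU145 control (up to 0.109). STAT2 fell in DU145 by 0.60 on the log2 scale (limma adjusted p = 0.0275), a call lost without any library but the second DU145 TRIB1 library (up to 0.121). In PC3, 5 rose and 1 fell, where 7.67% of all genes tested rose and 9.33% fell. At an unadjusted p below 0.05 (limma), 5 were higher and 4 lower there. The median was -0.04 against -0.01 over all genes. Those that rose were ATF3, STAT2, NFKB1, JUNB and RELB, and JUN fell. ATF3, a stress-induced factor gene, had 97.8 and 92.2 TPM in PC3 TRIB1, against 25.2 and 26.3 TPM in PC3 control (1.84, limma adjusted p = 7.61e-04), and JUN, an AP-1 subunit gene, had 45.6 and 45.8 TPM, against 78.5 and 96.2 TPM (-0.91, limma adjusted p = 0.00592). STAT2 rose by a log2 change of 0.53 (limma adjusted p = 0.0112), a call lost without the first PC3 TRIB1 library (0.0599). JUNB and RELB lost theirs without any library but the second PC3 control (up to 0.175 and 0.173). The TRIB1 change was lower in DU145 than in PC3 for 7 of the 19, among them ATF3, STAT2, NFKB1, JUNB, CEBPB and RELB, and higher for 0. Of all genes tested, 5.36% were lower and 4.01% higher (limma; 10 of the 19 lower and 2 higher at an unadjusted p below 0.05). NFKB1 differed by -1.04 (limma adjusted p = 0.00907), STAT2 by -1.12 (0.00710) and ATF3 by -2.11 (0.00192), and these 3 calls stood with any 1 library left out. The counts of 3, 6 and 7 fell as low as 0, 2 and 3 when single libraries were left out. The count of 3 was 0 without the second DU145 control and 1 when a PC3 TRIB1 library or the first DU145 control was left out, the count of 6 was 2 without the first PC3 TRIB1 library and 3 without the other PC3 TRIB1 library or either DU145 control, and the count of 7 was 3 without either DU145 control, the second DU145 TRIB1 library or the first PC3 TRIB1 library and 4 without the first DU145 TRIB1 library or the second PC3 TRIB1 library.

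**Figure D4:**
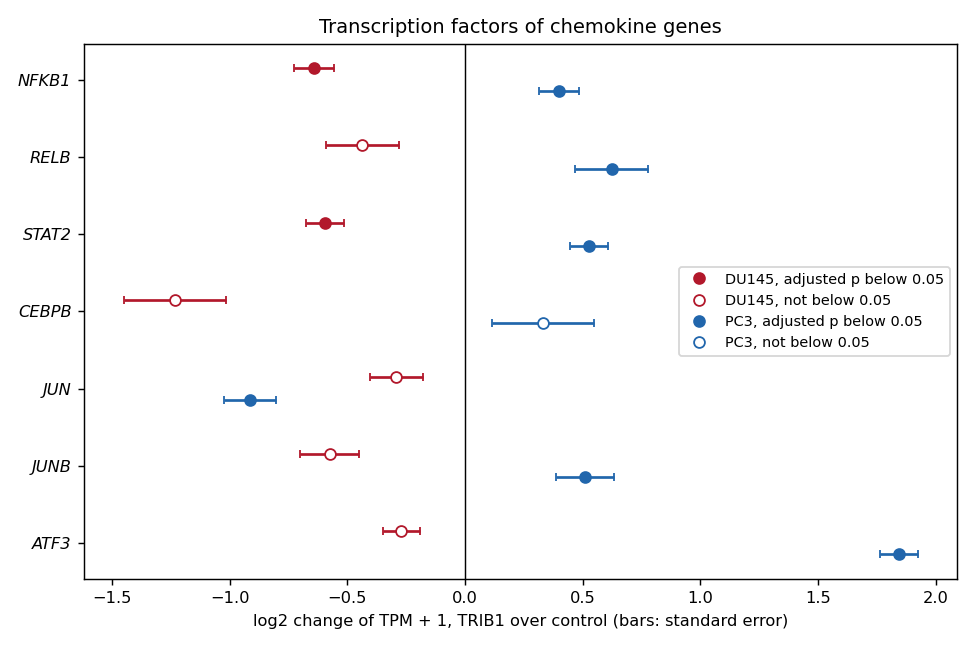
Log2 change of TPM + 1, TRIB1 over control (horizontal axis, bars are standard errors), for the 7 transcription factor genes of the list that the text names, in DU145 (red) and PC3 (blue); filled points have an adjusted p below 0.05. NFKB1 and STAT2 are filled on opposite sides of 0 in the lines, and ATF3 stands farthest right in PC3, at 1.84.

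The genes most alike to each tested member over the 8 libraries were listed by Pearson r on log2(TPM + 1) among 12291 other protein-coding genes. These values are descriptions, and the 8 points share 2 lines and 4 groups, so they are not independent. CCL20 was most like TNFAIP8 (r = 0.991), MARVELD2 (0.988) and SAT1 (0.985). TNFAIP8 had 7.16 and 7.16 TPM in DU145 TRIB1, against 13.4 and 13.7 TPM in DU145 control, and 20.3 and 22.2 TPM in PC3 TRIB1, against 13.5 and 12.1 TPM in PC3 control. CSF3 was most like NOX5, KLHL4 and MSMP (r = 0.9997, 0.9995 and 0.9991), and MSMP, known as a protein secreted by PC3 cells that binds the CCL2 receptor CCR2, had 392 and 400.1 TPM in PC3 TRIB1, against 3329 and 2948 TPM in PC3 control. CCL2 was most like PNRC1, POU2AF3 and the immunoproteasome gene PSMB9 (r = 0.997, 0.996 and 0.996), CSF1 like IL31RA, GET1 and USF1 (0.997, 0.9945 and 0.993) and CCL5 like PIP4P1, KCNQ3 and NLRP12 (0.984, 0.982 and 0.981). CSF2 was most like IFI44L, NDUFB4 and AP5M1 (0.999, 0.999 and 0.999) and CXCL16 like WNT10B, TIGAR and NGFR (0.989, 0.984 and 0.984). Among the members, CSF1 and CCL2 had the highest r (0.986), followed by CSF2 and CSF3 (0.957).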

How the data were processed

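RNA sequencing of 8 libraries in 4 groups of 2 was read from 1 deposited table of 57905 genes. Values are TPM as the authors deposited them, and each column sums to 1000000. Per the submitters' processing notes, the tools included HTSeq, edgeR, DESeq and TopHat2 2.0.14, with build hg38. Which tool made the TPM, which annotation and which strand setting are not given in the sources used. Intervals listed in the table were not used, as their build is not stated; gene positions are from GENCODE 29 and promoters from RefSeq (GRCh38.p14), matched by symbol, 3 of 10.

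Genes whose mean reached 1 TPM in any group were fitted with limma 3.58.1 (R 4.3.3) on log2(TPM + 1), with a mean-variance trend and 4 group means over 8 libraries (4 residual and 1.89 prior degrees of freedom), and the procedure was tested on simulated data. TPM keep no read totals, so no counting interval was computed. The 10 genes and the 3 further lists were chosen with earlier results of these data known. All members are reported; in the lists, up to 4 genes per direction and comparison are named by smallest p, and some genes are not reported here. CEBPB, RELB and JUNB among the differences between lines, and RELB among the rises in PC3, were named after their values were seen. So were CD68, PDGFRB, CCR3 and other single marker and receptor genes. Alternatives were another pseudocount, other filters and scalings, a replicate block, each line alone and each library left out.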

Additional observations from a re-analysis of the deposited data

Results flagged for a closer look

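The change with TRIB1 differed between the lines for 4 of the 10 genes, by the test of the difference in limma (DU145 minus PC3, adjusted over all genes tested). CCL20 differed by -4.38 on the log2 scale (limma adjusted p = 0.00192), with a fall in DU145 and a rise in PC3. CSF3 differed by 1.645 (limma adjusted p = 0.00754), with a fall in PC3 and levels near 0 in all DU145 libraries. A fall of CSF3 could hardly be seen in DU145, so this value restates the fall in PC3. CCL2 differed by -1.226 (limma adjusted p = 0.0403) and CXCL16 by -0.9405 (limma adjusted p = 0.0228). With a pseudocount of 0.1 TPM the CCL2 difference was -0.2212 (limma adjusted p = 0.878), and CCL2 was near or below 1 TPM in PC3. With the replicate number as a block, neither difference passed (limma adjusted p = 0.102 for CCL2 and 0.0938 for CXCL16). Both calls also depended on single libraries. The causes of these differences were not tested.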

How the results depend on the processing

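Of 405 repeats of the 28 member tests, 356 kept their direction and their side of the threshold, 41 lost a call, 3 gained one and 5 changed sign, none of these 5 called. With single libraries left out, CSF3 in DU145 ranged from -0.0996 to 0.0760 (0.0760 when the first control was absent, 0.0385 when the first TRIB1 library was). CCL5 in PC3 ranged from -0.25 to 0.21 (0.21 when the second control was absent, 0.03 when the second TRIB1 library was), and was 0.0126 after median-of-ratios scaling. CCL20 kept its calls between lines and in PC3 under every alternative run.

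Same-numbered libraries of a line shared almost no deviation (correlation -0.0415 in DU145 and -0.0103 in PC3, over 25982 genes). Whether the replicates were paired cannot be told from these values, as the labels give no source of the replicates. With the replicate number as a block, 0 members and 11 genes passed in DU145, 3 and 1735 in PC3, and 1 and 74 for the difference between lines. A block also uses up residual degrees of freedom, so these lower counts do not show an effect of pairing. In the fits as reported, with all libraries and no block, 3 and 707, 5 and 4415, and 4 and 2434 passed. Each line fitted alone gave 1 member and 52 genes in DU145 and 2156 genes in PC3. A pseudocount of 0.1 TPM left 2 members for the difference.

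With 1 library left out, 2 to 3 members and 253 to 764 genes passed in DU145, 3 to 5 and 2042 to 4145 in PC3, 2 to 3 and 1275 to 2916 for the difference, and 6 to 6 and 9852 to 12078 between controls, where 12216 genes passed with all libraries. For the receptor list 0 to 0 passed in DU145, 0 to 1 in PC3 and 0 to 0 for the difference. For the other chemokines these were 1 to 2, 0 to 3 and 1 to 3, and for the transcription factors 0 to 3, 2 to 5 and 3 to 7. Both scalings left 0 receptor genes and 0 other chemokines in DU145. The alternatives for the 3 lists were chosen after seeing the data. Where a group was left with 1 library, that library is assumed to vary like the others. Depth is unknown, which limits genes near or below 1 TPM, CCL2 in PC3 and CSF3 in DU145 among them; for these the pseudocount sets the size of the change.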
